A study of Mus musculus with 60 samples.

Results

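Synaptic vesicle release genes encode the proteins that load, dock, fuse and recover transmitter vesicles at the presynaptic terminal. A list of 48 such genes was followed through the RNA-Seq counts, and all 48 were found among the 46480 genes counted and among the 17040 genes expressed highly enough to be tested. The list holds 13 synaptotagmins, 3 C2-domain proteins of the Doc2 and rabphilin kind, 5 SNARE proteins, 3 complexins, 2 SNARE disassembly factors, 10 priming and active zone proteins, 3 Rab3 GTPases, 7 synapsins and vesicle membrane proteins, and 2 endocytosis proteins. All animals were male C57BL6J mice, killed at 80 days of age. Brothers were weaned on day 22, split between the housings and kept for 8 weeks in standard housing (SH, 3 mice in a cage) or in an enriched environment (EE, 12 mice in a large cage whose wheels, bridge and objects were exchanged every week). Punches of dorsal or ventral dentate gyrus (DG) were taken from frozen brain slices, and each sample pooled the tissue of several mice. Values below are from 9 pools, each sampled in both regions, 4 of SH and 5 of EE, which gave 18 samples in 4 groups. Pool 3 of SH was left out in both regions because Xist, an RNA made in females, reached 34.4 CPM in its dorsal and 11.9 CPM in its ventral sample, against at most 0.652 CPM in any other sample. The bisulfite and TAB sequencing samples of the study were not analysed here.

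A vesicle docks at the active zone through Rab3 and its effectors, is primed by Munc13 and RIM proteins, and fuses when its SNARE proteins zip together with those of the plasma membrane. Calcium entering at the terminal is sensed by synaptotagmins and Doc2 proteins, complexins hold the SNARE complex ready, NSF and its adaptors take it apart afterwards, and dynamin and amphiphysin bring the membrane back. Dentate granule cells send this machinery into the mossy fibres, whose large boutons on CA3 pyramidal cells are known for strong facilitation during trains of activity.

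Expression is given as CPM, counts scaled to library size, after TMM normalization when a gene is compared between samples, and as TPM, which is also scaled for transcript length, when genes are compared with each other. A gene was called different when edgeR's quasi-likelihood test gave a Benjamini-Hochberg adjusted p (false discovery rate, FDR) under 0.05 and the fold change exceeded 20%, which is 0.263 on the log2 scale. Fold changes between regions are dorsal over ventral DG, averaged over the housings. The 18 samples held 22919364 to 28301861 fragments counted on genes, and no pair of samples had identical counts. Within each group the values below are listed in the order of the pools, 1, 2, 4 and 5 for SH and 1 to 5 for EE.

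The punches hold several cell types, so in these bulk samples fewer cells of a type and less RNA per cell cannot be told apart. All 9 granule cell markers, Prox1 among them, were found in all groups. All 9 were also higher in dorsal DG at an FDR under 0.05, 8 of them by more than 20%, with log2 fold changes of 0.21 to 1.47. Their summed level ranged from 1992 to 2192 CPM in dorsal SH, 1804 to 2068 in dorsal EE, 1244 to 1398 in ventral SH and 969 to 1406 in ventral EE. Of 8 pan-neuronal markers, 2 had their higher level in dorsal and 2 in ventral DG, with summed levels of 4534 to 5011 CPM in dorsal and 4984 to 5471 CPM in ventral samples. In the other direction, all 8 choroid plexus markers were higher in ventral DG, with summed levels of 24.9 to 212 CPM over the dorsal samples and 392 to 1433 CPM over the ventral ones. Of 10 GABAergic interneuron markers, Pvalb, Sst and Vip were higher in ventral and Npy in dorsal DG, while Gad1, Gad2 and Slc32a1 did not pass the 20% limit. The summed interneuron level was 776 to 884 CPM in dorsal and 773 to 870 CPM in ventral samples. Among 8 pyramidal cell markers, dorsal DG had the higher level of 3 and ventral DG of 4, with summed levels of 460 to 532 and 496 to 582 CPM. Of 12 thalamus and habenula markers, 6 were higher in dorsal DG and 1 in ventral DG. The sums of the 12 were 259 to 382 CPM over the dorsal samples and 215 to 248 CPM over the ventral ones. Higher in dorsal DG were Pou4f1 (log2 fold change 3.58), Prkcd (2.32), Gpr151 (2.23), Slc17a6 (0.57), Plekhg1 (0.54) and Synpo2 (0.48), and higher in ventral DG was Lhx9 (-0.41). Mean Prkcd levels of the dorsal groups were 81.8 (SH) and 82.3 CPM (EE), against 16.2 (SH) and 16.6 CPM (EE) for the ventral groups. Pou4f1 and Gbx2 stayed under 1 CPM on average in every group. Of 5 hilar mossy cell markers, Nmb was higher in dorsal and Calb2 in ventral DG (log2 fold change -2.42), and 3 were not called. The sums of the 5 were 30.8 to 44.3 and 79.3 to 122 CPM. Calb2 alone averaged 14.4 (SH) and 17.1 CPM (EE) in dorsal, and 85.9 (SH) and 82.6 CPM (EE) in ventral DG. Among the glial and vascular markers, 2 of 7 for astrocytes were called higher in ventral DG. At an FDR under 0.05, 4 astrocyte markers were higher in ventral and 0 in dorsal DG. Their summed level was 6892 to 8698 CPM in dorsal and 7828 to 10828 CPM in ventral samples. For oligodendrocytes 0 of 7, for microglia 0 of 6 and for endothelial cells 0 of 5 were called by edgeR or by DESeq2. At an unadjusted p under 0.05 there were 3, 0 and 2. The 3 oligodendrocyte markers, Mag, Cldn11 and Cnp, also passed the FDR in favour of dorsal DG (0.24, 0.23 and 0.14 on the log2 scale), and 0 did so in favour of ventral DG. No marker was at 0 in all 18 samples. The part of these cell types in the differences below was not tested.

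Between the regions, 21 of the 48 release genes differed (43.8%, against 32.7% of all tested genes), with 8 higher in dorsal DG and 13 higher in ventral DG. By direction these were 16.7% of the members against 15.9% of all genes in dorsal DG, and 27.1% against 16.8% in ventral DG. The members were chosen with earlier results of these data known, so their shares here and below are no test of the pathway. Of 54 other tested genes of the same pathway, 10 were called higher in dorsal and 3 in ventral DG. When only genes above 1 TPM in 3 or more samples were considered, 20 of 45 members were called, against 28.3% of such genes. The median log2 fold change of the members was -0.06, and that of all tested genes was -0.0046. Regardless of direction, the median log2 difference was 0.21 for the members and 0.19 for all genes. In 15 members (31.2%) the 9 dorsal and 9 ventral samples did not overlap, against 18.9% of all genes. These were 6 members higher in dorsal DG (9.51% of all genes) and 9 higher in ventral DG (9.44% of all genes). Of the 9 roles, 5 held members that differed in opposite directions at an FDR under 0.05 (a limit that 58.4% of all genes passed), as the plot of fold changes by role shows.

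These directions are relative to the TMM scaling, under which the median log2 fold change of all genes was -0.0046 and 48.7% of the called genes were higher in dorsal DG. Because the granule cell markers differed, the samples were also scaled to the summed counts of these 9 markers, an alternative chosen after the data had been seen. It shifted the median log2 fold change of all genes to -0.73, and 90.2% of all genes were then called, 1.59% of these as higher in dorsal DG. On that scale 3 members (Doc2b, Rph3a and Syn3) were higher in dorsal DG, 42 were higher in ventral DG, and the median of the members was -0.79. Of the 8 members called higher in dorsal DG under TMM, Sv2c (0.17) and Syt7 (0.04) then had log2 fold changes below the limit, and those of Doc2a (-0.23), Unc13a (-0.30) and Syt10 (-0.41) were in the ventral direction. The 6 members with small dorsal excesses under TMM, Sv2a, Nsf, Cplx2, Pclo, Syt13 and Syt5, lay between -0.61 and -0.51 on that scale. Relative to the shift of all genes, 8 members lay more than 20% above and 13 more than 20% below. These were the same 21 genes as under TMM. The scaling moves all genes of a sample alike, so this sameness follows from it and is no separate check. Which of the scalings is nearer to the level per granule cell was not tested. The dorsal and ventral excesses given below are those under TMM.

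**Figure D1:**
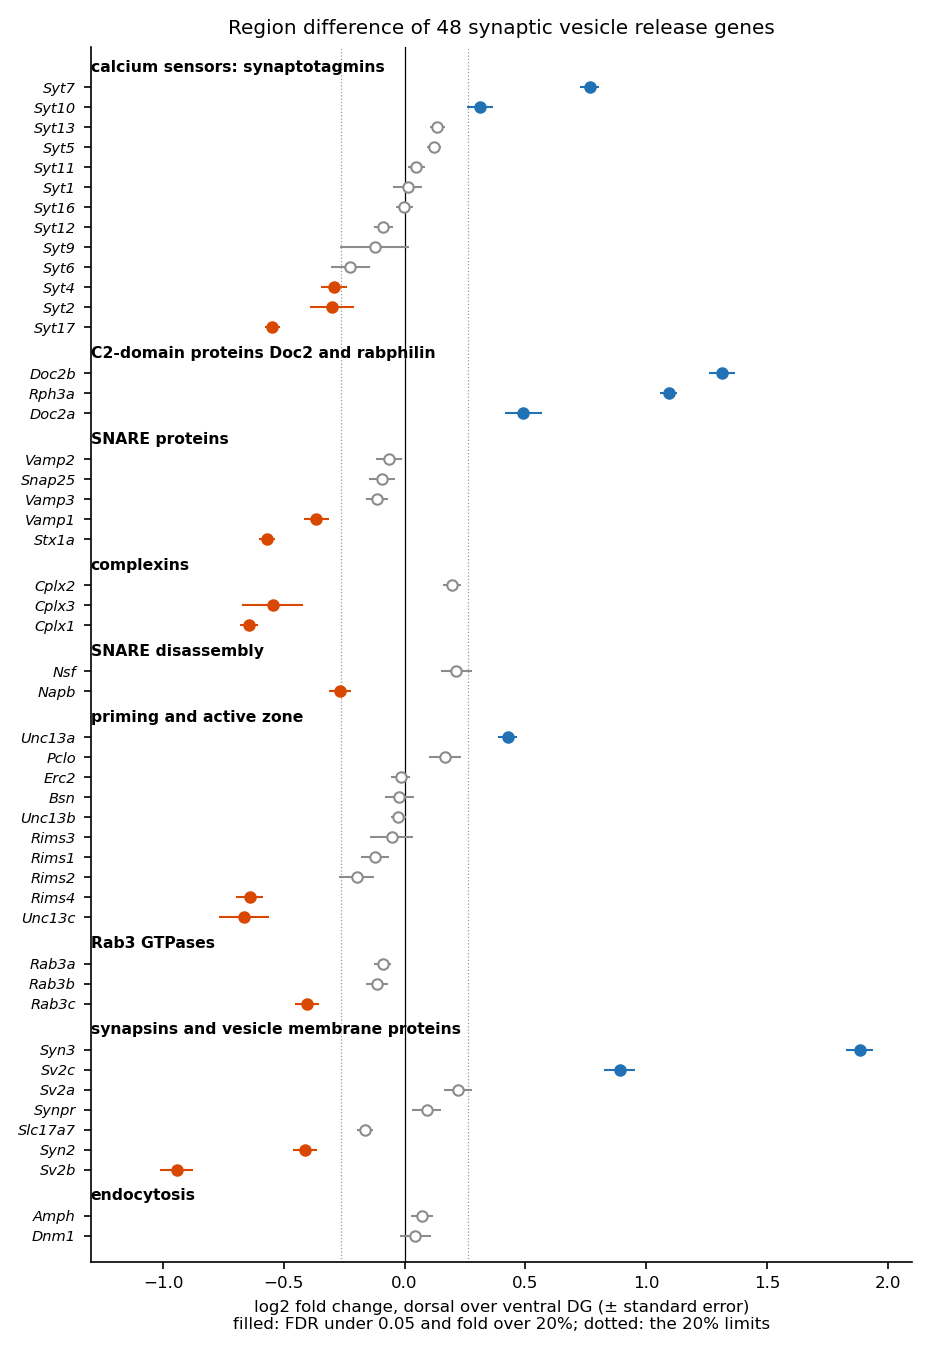
Log2 fold change of each of the 48 members between dorsal and ventral DG, grouped by role, with standard error. Filled points passed an FDR of 0.05 and a fold of 20%, and they run from -0.94 (Sv2b) to 1.88 (Syn3).

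The SV2 and Munc13 families each held a paralog that was higher in dorsal DG under TMM and one that was higher in ventral DG, although Unc13a was at -0.30 and Sv2c at 0.17 on the log2 scale when scaled to the granule cell markers. To show these opposed pairs, the 250 bases before the RefSeq transcription start furthest upstream are printed for Sv2c and Unc13a (dorsal) and for Sv2b and Unc13c (ventral), 5′ to 3′ on the minus strand that carries all of them (GRCm38.p6). They lie at chr13:96132578-96132827, chr7:75309263-75309512, chr8:71671758-71672007 and chr9:73969038-73969287, and none of these stretches overlaps an annotated exon. Capitals mark a GC box (GGGCGG, or CCGCCC on the other strand) or a TATA box (TATAAA, or TTTATA on the other strand).
Sv2c: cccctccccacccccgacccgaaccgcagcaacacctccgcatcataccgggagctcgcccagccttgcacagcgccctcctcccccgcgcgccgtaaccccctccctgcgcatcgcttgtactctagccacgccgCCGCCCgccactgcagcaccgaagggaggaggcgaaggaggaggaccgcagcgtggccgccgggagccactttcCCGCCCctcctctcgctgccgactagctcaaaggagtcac
Sv2b: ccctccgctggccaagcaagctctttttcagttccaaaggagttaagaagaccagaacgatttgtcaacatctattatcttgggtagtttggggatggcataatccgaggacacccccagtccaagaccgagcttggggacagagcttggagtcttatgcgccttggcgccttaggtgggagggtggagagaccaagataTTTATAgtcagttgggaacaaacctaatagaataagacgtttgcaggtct
Unc13a: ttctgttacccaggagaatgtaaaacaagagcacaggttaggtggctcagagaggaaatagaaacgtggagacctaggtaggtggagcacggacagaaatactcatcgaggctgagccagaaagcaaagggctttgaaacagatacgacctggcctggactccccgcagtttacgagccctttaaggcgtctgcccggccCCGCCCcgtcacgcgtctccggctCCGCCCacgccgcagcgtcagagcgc
Unc13c: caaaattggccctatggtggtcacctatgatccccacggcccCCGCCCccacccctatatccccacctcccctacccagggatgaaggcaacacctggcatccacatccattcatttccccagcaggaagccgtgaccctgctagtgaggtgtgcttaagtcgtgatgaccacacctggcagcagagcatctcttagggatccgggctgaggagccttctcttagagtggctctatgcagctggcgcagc
The Sv2c stretch is 70.8% G and C with 26 CpG dinucleotides and holds GC boxes, while that of Sv2b is 48.8% G and C with 7 CpG and holds the TATA box letters and no GC box. The Unc13a and Unc13c stretches are alike in base composition, at 58.0% and 58.8%, but hold 18 and 6 CpG, and both hold a GC box.

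RefSeq promoters of this table matched 34 of the 48 members. A GC box was found in 24 of these 34 stretches, and in 33% of the 27025 promoters of the same length. It was found in 3 of the 4 dorsal-higher, 7 of the 10 ventral-higher and 14 of the 20 other members that matched. The 34 stretches had medians of 61.2% G and C and 13 CpG, against 52.0% and 6 over all promoters. The part of base composition in the GC box counts was not tested. TATAAA was found before Sv2b and Rab3b (13% of all promoters), and the AP-1 letters TGANTCA before Rph3a and Erc2 (6.85%). The E-box CAGATG, the letters bound by NeuroD1, was found before Pclo and Rims3 (14.5%), and the cAMP response element TGACGTCA before no matched member (1.6%). Both strands were searched, and a match describes the letters and not a bound site.

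The synaptotagmins are membrane proteins with a pair of C2 domains, several of which bind calcium and trigger fusion. Of the 13, Syt7 and Syt10 were higher in dorsal DG under TMM (0.04 and -0.41 on the log2 scale when scaled to the granule cell markers), Syt17, Syt2 and Syt4 were higher in ventral DG, and 8 were not called. Syt1, the sensor for fast synchronous release, had the highest level of the family at 111 ± 28.5 TPM (mean ± SD, n = 18). Syt1 was counted at 1147, 893, 1093 and 1085 CPM in dorsal SH, 1034, 851, 1012, 938 and 1030.1 CPM in dorsal EE, 913, 985, 1104 and 1140.5 CPM in ventral SH and 947, 808, 1071, 987 and 1058 CPM in ventral EE. The regions overlapped fully, and the log2 fold change was 0.01 (SE 0.06, edgeR's quasi-likelihood test, Benjamini-Hochberg adjusted p = 0.884).

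Syt7, the high-affinity sensor tied to asynchronous release and facilitation (ENSMUSG00000024743.13, chromosome 19, 10389090 to 10453180, plus strand), was counted at 445, 399, 408 and 413 CPM in dorsal SH, 430.2, 401, 385, 366 and 374 CPM in dorsal EE, 241, 222, 253 and 239 CPM in ventral SH and 243, 246, 234, 233 and 223 CPM in ventral EE. Every dorsal sample lay above every ventral sample. The log2 fold change was 0.77 (SE 0.04, edgeR's quasi-likelihood test, Benjamini-Hochberg adjusted p = 1.35e-13), a 1.70-fold dorsal excess, and it was 0.80 in SH and 0.73 in EE. It was 0.04 when scaled to the granule cell markers, where all genes had a median of -0.73. Syt7 made up 8.76% ± 0.358 of the synaptotagmin TPM in dorsal SH and 5.23% ± 0.297 in ventral SH (SD, n = 4 each). Syt10, a calcium-binding synaptotagmin, was at 19.7 ± 0.685 CPM in dorsal SH (SD, n = 4) and 17.3 ± 1.11 in dorsal EE (n = 5), against 15.5 ± 0.642 in ventral SH (n = 4) and 14.3 ± 1.86 in ventral EE (n = 5), with a log2 fold change of 0.31 (SE 0.05, edgeR's quasi-likelihood test, Benjamini-Hochberg adjusted p = 3.19e-05) and the same direction in 9 of 9 pools under TMM.

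Syt17, a peripheral relative also called B/K protein (ENSMUSG00000058420.6, chromosome 7, 118380717 to 118448222, minus strand), was counted at 64.2, 62.3, 64.9 and 70.5 CPM in dorsal SH, 62.9, 64.3, 64.2, 62.7 and 62.9 CPM in dorsal EE, 92.5, 96.6, 94.1 and 97.8 CPM in ventral SH and 94.6, 88.4, 88.7, 94.1 and 99.8 CPM in ventral EE. The regions did not overlap. The log2 fold change was -0.55 (SE 0.03, edgeR's quasi-likelihood test, Benjamini-Hochberg adjusted p = 1.39e-12), a 1.46-fold ventral excess that was -0.54 in SH and -0.55 in EE. Syt4 was at 162 ± 11.9 CPM in dorsal SH (SD, n = 4) and 145 ± 14.9 in dorsal EE (n = 5), against 193 ± 17.1 in ventral SH (n = 4) and 182 ± 14.9 in ventral EE (n = 5), with a log2 fold change of -0.29 (SE 0.05, edgeR's quasi-likelihood test, Benjamini-Hochberg adjusted p = 9.15e-05). Syt2, a fast sensor known from interneurons and brainstem neurons, was low at 0.806 ± 0.269 TPM and had a log2 fold change of -0.30 (SE 0.09, edgeR's quasi-likelihood test, Benjamini-Hochberg adjusted p = 0.00743). Both were higher in ventral DG in 9 of 9 pools, although their ranges overlapped between regions, and the 10 interneuron markers, of which 3 were called in favour of ventral and 1 of dorsal DG, had a median log2 fold change of -0.07.

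Of the 8 synaptotagmins not called, Syt13 (0.14) and Syt5 (0.12) were higher in dorsal DG and Syt6 (-0.22) in ventral DG at an FDR under 0.05 with folds below the limit, while Syt13 was at -0.59 and Syt5 at -0.61 when scaled to the granule cell markers. Syt11, the second most abundant at 68.6 ± 14.5 TPM, had a log2 fold change of 0.05 (SE 0.04, edgeR's quasi-likelihood test, Benjamini-Hochberg adjusted p = 0.253). Syt12, Syt13 and Syt16 are synaptotagmins that are not thought to bind calcium.

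All 3 members of the Doc2 and rabphilin group were higher in dorsal DG, although Doc2a was lower there when scaled to the granule cell markers. Rabphilin (Rph3a, ENSMUSG00000029608.9, chromosome 5, 120940499 to 121010092, minus strand), an effector of Rab3, was the most abundant at 25.5 ± 12.2 TPM. It was counted at 347, 320.1, 316 and 323 CPM in dorsal SH, 312, 302, 308, 276 and 295 CPM in dorsal EE, 148, 143, 147 and 132 CPM in ventral SH and 148, 155, 149, 145 and 154 CPM in ventral EE. Every dorsal sample exceeded every ventral one by a wide margin. The log2 fold change was 1.09 (SE 0.03, edgeR's quasi-likelihood test, Benjamini-Hochberg adjusted p = 1.07e-16), a 2.13-fold dorsal excess.

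Doc2b (ENSMUSG00000020848.7, chromosome 11, 75768966 to 75796049, minus strand), a soluble high-affinity calcium sensor linked to spontaneous release, was counted at 140.1, 137, 166 and 169.5 CPM in dorsal SH, 150.1, 145, 161, 164 and 146 CPM in dorsal EE, 58.0, 58.6, 74.3 and 65.5 CPM in ventral SH and 57.1, 63.3, 56.6, 61.4 and 57.8 CPM in ventral EE. The dorsal and ventral samples were far apart and did not overlap. Its log2 fold change of 1.31 (SE 0.05, edgeR's quasi-likelihood test, Benjamini-Hochberg adjusted p = 3.14e-15) corresponds to a 2.49-fold dorsal excess and was 1.26 in SH and 1.37 in EE. Doc2a, its close relative (ENSMUSG00000052301.13, chromosome 7, 126847416 to 126852705, plus strand), was counted at 15.7, 13.7, 15.2 and 14.5 CPM in dorsal SH, 14.4, 11.6, 11.7, 10.4 and 13.8 CPM in dorsal EE, 10.4, 10.4, 11.9 and 8.84 CPM in ventral SH and 7.92, 9.15, 8.19, 11.5 and 8.22 CPM in ventral EE. These ranges overlapped, and 8 of 9 pools were higher in dorsal DG. Doc2a had a log2 fold change of 0.49 (SE 0.08, edgeR's quasi-likelihood test, Benjamini-Hochberg adjusted p = 8.89e-06). Of the exon bases of Doc2a, 39.4% are shared with Ino80e on the opposite strand, and Ino80e had a log2 fold change of 0.06. Doc2b made up 82.8% of the summed Doc2 TPM in dorsal SH and 76.0% in ventral SH.

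The SNARE proteins form the fusion complex, and none of the 5 was higher in dorsal DG. Snap25 was the most abundant of all 48 members at 426 ± 96.1 TPM (SD, n = 18). It was counted at 1906, 1622, 1856 and 1882 CPM in dorsal SH, 1947, 1559, 1698, 1774 and 1912 CPM in dorsal EE, 1880.2, 1862, 2117 and 2039 CPM in ventral SH and 1799, 1611, 2034, 1918 and 1941 CPM in ventral EE. The regions overlapped, and the log2 fold change of -0.09 (SE 0.05, edgeR's quasi-likelihood test, Benjamini-Hochberg adjusted p = 0.133) did not pass the test. Stx1a, a plasma membrane syntaxin (ENSMUSG00000007207.9, chromosome 5, 135023482 to 135051100, plus strand), was counted at 55.8, 52.7, 53.4 and 53.7 CPM in dorsal SH, 55.2, 50.5, 46.2, 48.4 and 52.5 CPM in dorsal EE, 78.9, 79.8, 80.4 and 80.2 CPM in ventral SH and 73.8, 70.6, 76.2, 76.8 and 78.4 CPM in ventral EE. Every ventral sample lay above every dorsal sample. Its log2 fold change was -0.57 (SE 0.03, edgeR's quasi-likelihood test, Benjamini-Hochberg adjusted p = 2.22e-12), a 1.48-fold ventral excess.

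Vamp1, a vesicle SNARE that many interneurons use, was at 54.1 ± 4.93 CPM in dorsal SH (SD, n = 4) and 55.9 ± 5.28 in dorsal EE (n = 5), against 68.2 ± 3.63 in ventral SH (n = 4) and 73.5 ± 6.61 in ventral EE (n = 5). The regions did not overlap, and the log2 fold change was -0.36 (SE 0.05, edgeR's quasi-likelihood test, Benjamini-Hochberg adjusted p = 2.81e-06). Vamp2, the main vesicle SNARE of the forebrain, had a log2 fold change of -0.06 (SE 0.05, edgeR's quasi-likelihood test, Benjamini-Hochberg adjusted p = 0.309), and Vamp3 one of -0.11. Of the summed TPM of these vesicle SNAREs, Vamp2 made up 71.8% in dorsal SH and 67.5% in ventral SH, and Vamp1 made up 16.8% and 20.6%.

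Complexins bind the assembled SNARE complex. Cplx2, the most abundant at 166 ± 38.5 TPM, was counted at 2020.0, 1846, 1877 and 1844 CPM in dorsal SH, 1961, 1761, 1836, 1740.1 and 1704 CPM in dorsal EE, 1627, 1594, 1639.9 and 1626 CPM in ventral SH and 1614, 1746, 1564, 1525 and 1556 CPM in ventral EE. It was higher in dorsal DG in 9 of 9 pools, but its log2 fold change of 0.20 (SE 0.04, edgeR's quasi-likelihood test, Benjamini-Hochberg adjusted p = 0.000106) was below the 20% limit, and it was -0.53 when scaled to the granule cell markers. Cplx1 (ENSMUSG00000033615.9, chromosome 5, 108518554 to 108550024, minus strand), its close relative, went the other way and was counted at 205, 189.7, 206 and 196 CPM in dorsal SH, 218, 189, 200.2, 187 and 201 CPM in dorsal EE, 297, 299, 293 and 317 CPM in ventral SH and 333, 304, 348, 311 and 315 CPM in ventral EE. The ventral samples lay above all dorsal ones without overlap. Cplx1 had a log2 fold change of -0.65 (SE 0.04, edgeR's quasi-likelihood test, Benjamini-Hochberg adjusted p = 1.73e-12), a 1.56-fold ventral excess.

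Cplx1 made up 19.4% to 21.8% of the complexin TPM in the 9 dorsal samples and 29.2% to 34.4% in the 9 ventral ones. Cplx3, found mostly at ribbon synapses and in a few cortical neurons, was the least abundant member at 0.288 ± 0.0587 TPM. It had a log2 fold change of -0.55 (SE 0.13, edgeR's quasi-likelihood test, Benjamini-Hochberg adjusted p = 0.00078), in the ventral direction in 9 of 9 pools. Of the SNARE disassembly factors, the ATPase Nsf was counted at 1313, 1077, 1227 and 1314 CPM in dorsal SH, 1188, 1085, 1190.2, 1179 and 1238 CPM in dorsal EE, 934, 1008, 1158 and 1212 CPM in ventral SH and 941, 801, 1036, 1119 and 1097 CPM in ventral EE. The ranges overlapped, with a log2 fold change of 0.21 (SE 0.06, edgeR's quasi-likelihood test, Benjamini-Hochberg adjusted p = 0.00561) that was below the 20% limit and was -0.51 when scaled to the granule cell markers. Its adaptor Napb (beta-SNAP) was at 617 ± 45.6 CPM in dorsal SH (SD, n = 4) and 609.8 ± 32.4 in dorsal EE (n = 5), against 749.8 ± 36.4 in ventral SH (n = 4) and 728 ± 55.3 in ventral EE (n = 5), with a log2 fold change of -0.27 (SE 0.04, edgeR's quasi-likelihood test, Benjamini-Hochberg adjusted p = 2.1e-05). This difference lay at the limit, and its log2 fold change of -0.26 to -0.25 was not called when EE pool 3, EE pool 4, SH pool 2 or SH pool 5 was left out.

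Priming and active zone proteins hold vesicles at the release site. Of the 10, Unc13a was higher in dorsal DG under TMM (-0.30 on the log2 scale when scaled to the granule cell markers), Unc13c and Rims4 were higher in ventral DG, and 7 were not called, among them the large scaffolds Bsn (-0.02) and Pclo (0.17, or -0.57 on that other scale) and the scaffold protein Erc2 (-0.02, all log2). Rims1, which links calcium channels, Rab3 and Munc13, was the most abundant at 32.1 ± 4.71 TPM and was counted at 315, 325, 295 and 283 CPM in dorsal SH, 321, 304, 283, 265 and 282 CPM in dorsal EE, 361, 340.2, 303 and 295 CPM in ventral SH and 353, 386, 308, 278 and 294 CPM in ventral EE. The ranges overlapped while each pool was higher in ventral DG, and the log2 fold change of -0.12 (SE 0.06, edgeR's quasi-likelihood test, Benjamini-Hochberg adjusted p = 0.0791) did not pass the test. Pools 1 and 2 had higher Rims1 values than pools 4 and 5 in each of the 4 groups.

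Rims4 (ENSMUSG00000035226.5, chromosome 2, 163859751 to 163918683, minus strand), which encodes a short RIM that lacks the Rab3-binding part, was counted at 45.1, 49.4, 44.8 and 43.6 CPM in dorsal SH, 54.9, 50.3, 50.5, 46.7 and 45.5 CPM in dorsal EE, 67.7, 69.2, 65.6 and 71.2 CPM in ventral SH and 86.7, 94.8, 82.7, 65.0 and 73.2 CPM in ventral EE. Each ventral sample exceeded each dorsal one. Rims4 had a log2 fold change of -0.64 (SE 0.06, edgeR's quasi-likelihood test, Benjamini-Hochberg adjusted p = 2.02e-09), and it was -0.58 in SH and -0.70 in EE. Rims4 made up 9.35% ± 0.529 of the RIM family TPM in dorsal SH and 12.4% ± 1.27 in ventral SH (SD, n = 4 each).

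Munc13-1, encoded by Unc13a, primes vesicles at most forebrain glutamatergic synapses. Unc13a was at 337 ± 16.8 CPM in dorsal SH (SD, n = 4) and 344 ± 14.3 in dorsal EE (n = 5), against 252 ± 16.9 in ventral SH (n = 4) and 254 ± 15.5 in ventral EE (n = 5). The regions did not overlap, and the log2 fold change was 0.43 (SE 0.04, edgeR's quasi-likelihood test, Benjamini-Hochberg adjusted p = 4.71e-09), against -0.30 when scaled to the granule cell markers. Its paralog Unc13c (ENSMUSG00000062151.12, chromosome 9, 73479422 to 73968966, minus strand), known best from the cerebellum, was counted at 22.7, 22.9, 18.2 and 16.4 CPM in dorsal SH, 20.6, 20.3, 16.3, 14.5 and 15.2 CPM in dorsal EE, 34.6, 33.1, 22.6 and 27.4 CPM in ventral SH and 35.2, 37.5, 25.0, 26.0 and 25.3 CPM in ventral EE. The regions overlapped at their edges, and pools 1 and 2 were higher than the other pools in every group, but each of the 9 pools was higher in its ventral sample. Unc13c had a log2 fold change of -0.66 (SE 0.10, edgeR's quasi-likelihood test, Benjamini-Hochberg adjusted p = 8.6e-06), a 1.58-fold ventral excess. Unc13c made up 2.83% to 4.83% of the Munc13 TPM in dorsal and 5.67% to 10.3% in ventral samples, while Unc13a made up 81.7% to 86.1% and 74.3% to 79.5%. Unc13b differed by a log2 fold change of -0.03 (SE 0.03, edgeR's quasi-likelihood test, Benjamini-Hochberg adjusted p = 0.488).

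**Figure D2:**
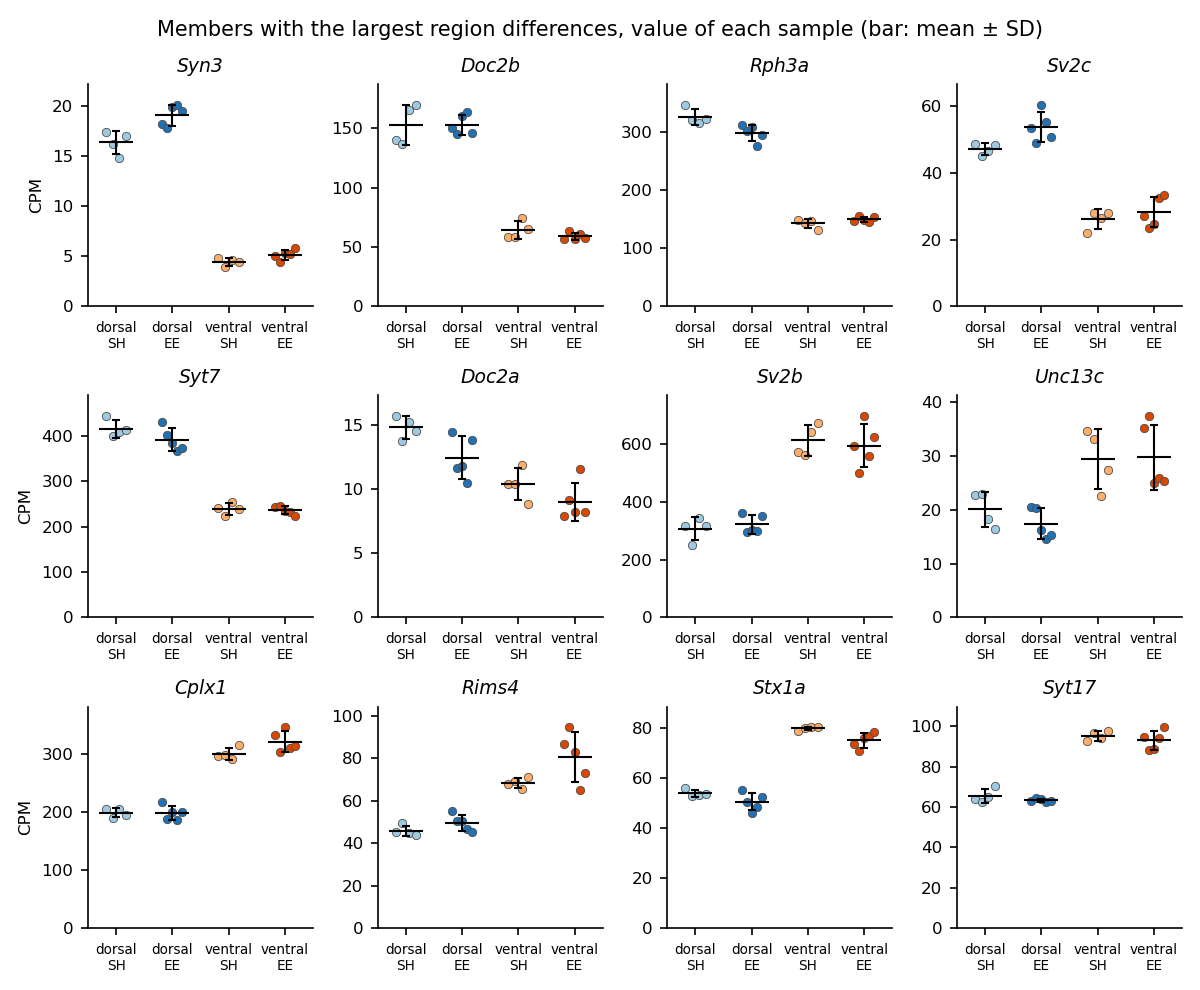
CPM of the 6 members with the largest dorsal and the 6 with the largest ventral excess, 1 point per sample, with mean and SD for each of the 4 groups. The regions overlap only for Doc2a and Unc13c.

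Rab3 GTPases mark vesicles that are ready to dock, and all 3 members had lower values in dorsal than in ventral DG. Rab3a was the most abundant at 126 ± 25.2 TPM and was counted at 335, 322, 344 and 350.0 CPM in dorsal SH, 322, 329.8, 329, 332 and 346 CPM in dorsal EE, 345, 348, 384 and 374 CPM in ventral SH and 339, 317, 368, 365 and 362 CPM in ventral EE. These ranges overlapped, and the log2 fold change of -0.09 (SE 0.04, edgeR's quasi-likelihood test, Benjamini-Hochberg adjusted p = 0.0353) was below the 20% limit. Rab3c was at 249 ± 11.1 CPM in dorsal SH (SD, n = 4) and 249.7 ± 23.0 in dorsal EE (n = 5), against 321 ± 26.3 in ventral SH (n = 4) and 340.3 ± 28.5 in ventral EE (n = 5). It was the 1 Rab3 gene past the limit, with a log2 fold change of -0.40 (SE 0.05, edgeR's quasi-likelihood test, Benjamini-Hochberg adjusted p = 4.96e-07), and its regions did not overlap.

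Synapsins tether vesicles in the reserve pool. Syn3 (ENSMUSG00000059602.13, chromosome 10, 86055125 to 86498896, minus strand), the synapsin linked to newborn and developing neurons, had the largest difference of all members and was counted at 17.4, 16.2, 14.9 and 17.1 CPM in dorsal SH, 18.2, 17.8, 19.9, 20.1 and 19.5 CPM in dorsal EE, 4.80, 3.94, 4.62 and 4.38 CPM in ventral SH and 5.05, 4.44, 5.37, 5.20 and 5.78 CPM in ventral EE. The dorsal samples lay far above the ventral ones, with no value in between. The log2 fold change was 1.88 (SE 0.05, edgeR's quasi-likelihood test, Benjamini-Hochberg adjusted p = 3.26e-17), a 3.69-fold dorsal excess that was 1.88 in SH and 1.88 in EE. The gene Timp3 lies within Syn3 on the opposite strand and shares 14.1% of the Syn3 exon bases, and it was lower in dorsal DG (log2 fold change -0.19). Syn2, far more abundant at 113 ± 28.2 TPM, was at 702 ± 57.1 CPM in dorsal SH (SD, n = 4) and 665 ± 40.6 in dorsal EE (n = 5), against 943 ± 73.5 in ventral SH (n = 4) and 877 ± 77.5 in ventral EE (n = 5). Its log2 fold change was -0.41 (SE 0.05, edgeR's quasi-likelihood test, Benjamini-Hochberg adjusted p = 3.6e-07) without overlap of the regions, so synapsins 2 and 3 differed in opposite directions, also when scaled to the granule cell markers. Syn3 made up 2.63% of the summed TPM of synapsins 2 and 3 in dorsal SH and 0.535% in ventral SH.

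SV2 proteins are vesicle membrane proteins needed for normal release. Sv2b (ENSMUSG00000053025.12, chromosome 7, 75114894 to 75309262, minus strand) was counted at 315, 251, 343 and 316 CPM in dorsal SH, 361, 295, 301, 298 and 352 CPM in dorsal EE, 571, 563, 643 and 673 CPM in ventral SH and 591, 499, 698, 559 and 624 CPM in ventral EE. All ventral samples lay above all dorsal samples. Sv2b had a log2 fold change of -0.94 (SE 0.07, edgeR's quasi-likelihood test, Benjamini-Hochberg adjusted p = 6.34e-11), a 1.92-fold ventral excess. Sv2c (ENSMUSG00000051111.14, chromosome 13, 95954594 to 96132577, minus strand) was much less abundant, at 2.22 ± 0.93 TPM, and was counted at 48.7, 45.0, 46.5 and 48.4 CPM in dorsal SH, 53.4, 49.1, 60.5, 55.4 and 50.9 CPM in dorsal EE, 21.9, 28.1, 26.5 and 28.1 CPM in ventral SH and 27.0, 23.5, 24.6, 32.5 and 33.3 CPM in ventral EE. Here all dorsal samples lay above all ventral samples. For Sv2c the log2 fold change was 0.89 (SE 0.06, edgeR's quasi-likelihood test, Benjamini-Hochberg adjusted p = 7.59e-11), a 1.85-fold dorsal excess that did not pass the 20% limit when scaled to the granule cell markers.

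Sv2a, the target of the drug levetiracetam, was higher in dorsal DG in 9 of 9 pools, but its log2 fold change of 0.22 (SE 0.06, edgeR's quasi-likelihood test, Benjamini-Hochberg adjusted p = 0.00199) was below the limit, and it was -0.51 when scaled to the granule cell markers. Sv2a was the larger part of the SV2 family in dorsal SH at 56.3% ± 1.74 of its TPM, against 39.6% ± 1.92 for Sv2b. In ventral SH the order was the opposite, at 37.9% ± 1.10 for Sv2a and 60.5% ± 1.10 for Sv2b (SD, n = 4 each). The shares in EE were 56.1% and 39.6% in dorsal and 38.0% and 60.1% in ventral DG (n = 5 each).

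**Figure D3:**
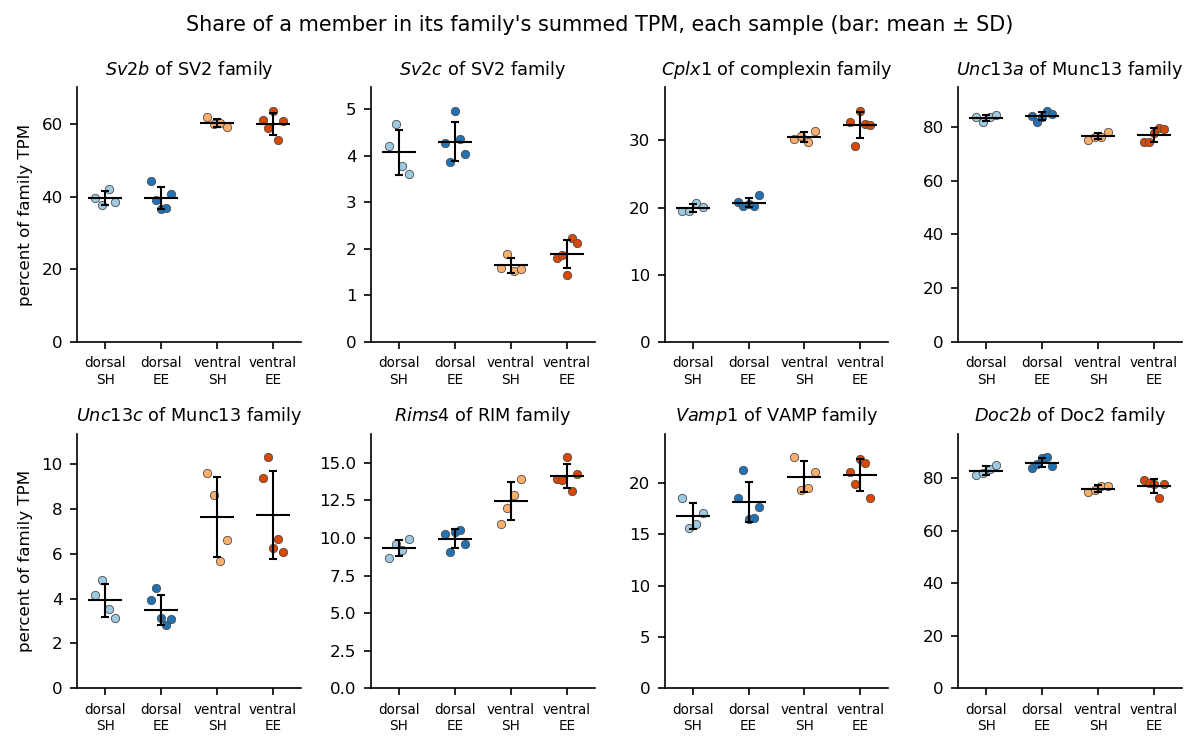
Percent of the summed TPM of its paralog family that each named gene takes, 1 point per sample, with mean and SD. The Sv2b share is 36.8% to 44.3% in dorsal and 55.6% to 63.8% in ventral samples.

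Slc17a7, the vesicular glutamate transporter VGLUT1, was the most abundant of the vesicle membrane group at 152 ± 27.5 TPM. It was counted at 967, 882, 929 and 902 CPM in dorsal SH, 915, 917, 890.0, 860.2 and 915 CPM in dorsal EE, 1076, 1012, 1036 and 1014 CPM in ventral SH and 1021, 968, 1040.3, 972 and 1019.9 CPM in ventral EE. The ventral samples did not overlap the dorsal ones, but the log2 fold change of -0.16 (SE 0.03, edgeR's quasi-likelihood test, Benjamini-Hochberg adjusted p = 0.00015) was below the 20% limit. Synpr (synaptoporin), a vesicle protein rich in mossy fibres, had a log2 fold change of 0.09 (SE 0.06, edgeR's quasi-likelihood test, Benjamini-Hochberg adjusted p = 0.197). Dynamin 1 (Dnm1), which cuts vesicles from the membrane, was the more abundant endocytosis gene and was counted at 997, 808, 932 and 973 CPM in dorsal SH, 918, 794, 866, 860.0 and 937 CPM in dorsal EE, 799, 800.2, 994 and 1015 CPM in ventral SH and 785, 674, 913, 926 and 928 CPM in ventral EE. Its ranges overlapped with a log2 fold change of 0.04 (SE 0.07, edgeR's quasi-likelihood test, Benjamini-Hochberg adjusted p = 0.579), and amphiphysin (Amph) had one of 0.07.

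The region difference was also taken in each housing. In SH alone, 8 members had the higher level in dorsal and 11 in ventral DG (39.6% called, against 28.3% of all genes). In EE alone the counts were again 8 and 11 (39.6%, against 29.8% of all genes). The ventral genes were not all the same, since Cplx3 and Napb were called in SH only and Syt2 and Syt4 in EE only. A test of whether the region difference changed with housing, which is the same as a test of unequal EE effects in the regions, called 0 of 48 members by edgeR and by DESeq2, and 0.00587% of all genes by edgeR. At an unadjusted p under 0.05 there was 1 member (2.08%, against 3.25% of all genes). This was Rph3a, which was 1.09-fold lower in EE than in SH in dorsal DG and 1.05-fold higher in ventral DG, and its Benjamini-Hochberg adjusted p in edgeR's interaction test was 1.00. The next smallest interaction p values were those of Vamp2 and Syt5, both above 0.05 before adjustment. Vamp2 was counted at 177, 172, 178 and 176 CPM in dorsal SH, 181, 143, 174, 159 and 168 CPM in dorsal EE, 160.2, 179, 177 and 170.1 CPM in ventral SH and 183, 162, 189, 166 and 222 CPM in ventral EE, so that the EE samples scattered more widely than the SH samples in both regions. Syt5 was counted at 78.7, 83.3, 82.5 and 81.6 CPM in dorsal SH, 81.0, 91.8, 86.9, 88.1 and 88.1 CPM in dorsal EE, 77.9, 75.9, 78.9 and 76.5 CPM in ventral SH and 74.8, 81.8, 74.3, 79.7 and 78.2 CPM in ventral EE, with 4 of 5 dorsal EE samples above all dorsal SH samples.

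EE was compared with SH within each region. In dorsal DG, edgeR and DESeq2 each called 0 of 48 members raised and 0 lowered, while edgeR called 0.634% of all genes (0.387% raised and 0.246% lowered). At an unadjusted p under 0.05 there were 9 members (18.8%, against 8.81% of all genes), with Syt12, Syn3, Sv2c and Syt5 higher and Syt16, Rph3a, Syt10, Doc2a and Syt4 lower in EE. In 7 members (14.6%) the dorsal EE and SH samples did not overlap, against 3.99% of all genes, with Syt12, Syn3, Syt13 and Sv2c higher and Rph3a, Syt16 and Syt10 lower in EE. In ventral DG, Syt12 was called raised and 0 members were called lowered by edgeR and by DESeq2 (2.08%, against 0.241% of all genes, 0.182% raised and 0.0587% lowered). There 5 members (10.4%, against 7.58% of all genes) had an unadjusted p under 0.05, with Syt12, Rims4, Syn3 and Bsn higher and Synpr lower in EE. In 2 members (4.17%, against 2.45% of all genes) the ventral EE and SH samples did not overlap, with Syt12 higher and Stx1a lower in EE. The median log2 fold change of the members was -0.02 in both regions, and that of all genes was -0.0034 in dorsal and -0.00018 in ventral DG. Scaled to the granule cell markers, the medians of all genes were 0.10 and 0.16. The share of raised genes among all called genes was then 93.9% in dorsal and 98.0% in ventral DG, against 61.1% and 75.6% under TMM. The calls among the members stayed at 0 in dorsal (0.387% of all genes) and 1, Syt12, in ventral DG (0.299% of all genes).

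**Figure D4:**
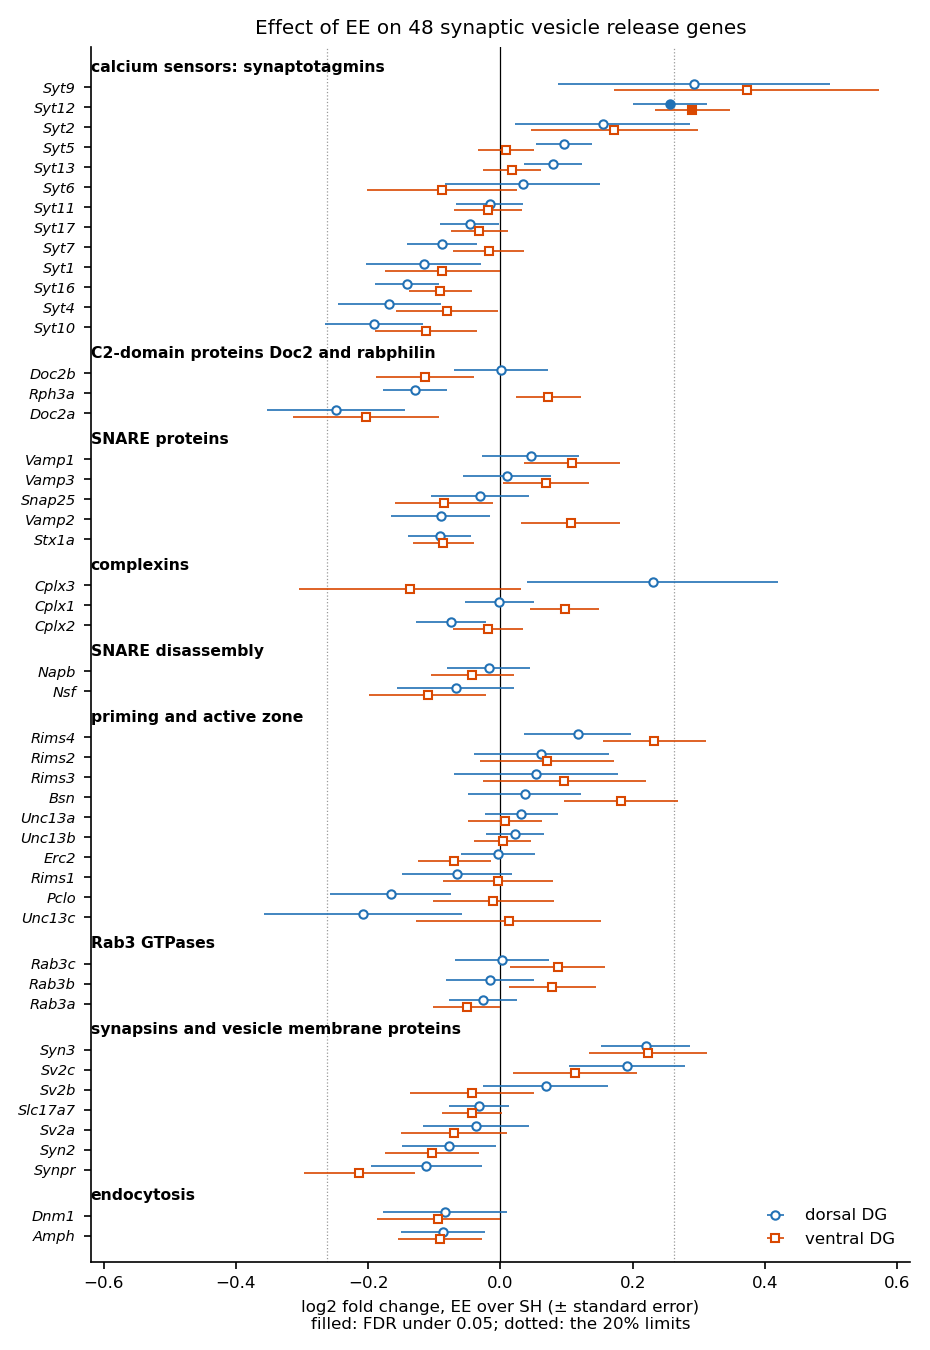
Log2 fold change of each member between EE and SH in dorsal (circles) and ventral DG (squares), with standard error. Only the points of Syt12 are filled, which marks an FDR under 0.05, and they lie at 0.26 and 0.29.

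Syt12 (ENSMUSG00000049303.9, chromosome 19, 4445908 to 4477447, minus strand), a vesicle synaptotagmin that is phosphorylated by protein kinase A, was counted at 27.9, 26.4, 29.5 and 27.7 CPM in dorsal SH, 35.5, 32.9, 31.1, 33.8 and 33.0 CPM in dorsal EE, 28.4, 28.0, 30.1 and 30.7 CPM in ventral SH and 33.4, 32.8, 38.4, 38.6 and 35.7 CPM in ventral EE. Each EE sample lay above each SH sample in both regions. In dorsal DG the log2 fold change was 0.26 (SE 0.06, edgeR's test, Benjamini-Hochberg adjusted p = 0.0298), a 1.19-fold rise that passed the FDR but not the 20% limit. In ventral DG it was 0.29 (SE 0.06, edgeR's test, Benjamini-Hochberg adjusted p = 0.0219), a 1.22-fold rise. Both calls turned when the replicate number was added as a block, a fit to which EE pool 3 adds nothing because its SH partner was left out. With the block, Syt12 was called raised in dorsal DG (log2 fold change 0.28, edgeR adjusted p = 0.00197) and was not called in ventral DG, where its log2 fold change of 0.26 (edgeR adjusted p = 0.00593) did not pass the 20% limit. The block also raised the calls over all genes from 108 to 202 in dorsal and from 41 to 91 in ventral DG. The difference between these effects was -0.03 on the log2 scale, with an unadjusted p of 0.673 in edgeR's interaction test. Without EE pool 3, 4 or 5, or SH pool 1, 2 or 4, the ventral adjusted p of edgeR's test with Benjamini-Hochberg adjustment lay between 0.0614 and 0.124, while the log2 fold change stayed between 0.26 and 0.30. Without EE pool 3 or SH pool 4 the dorsal fold was 1.21 or 1.22 and passed both limits. In the left-out SH pool 3, normalized with all 20 samples, Syt12 was at 28.7 CPM in the dorsal sample and 29.3 CPM in the ventral one, within the range of the other SH samples of each region. Of the Syt12 exon bases, 17.2% are shared with A930001C03Rik on the opposite strand, which had too few counts to be tested.

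Syn3 had the next smallest p in dorsal DG, where all 5 EE samples lay above all 4 SH samples in the values given above. Its EE log2 fold change was 0.22 (SE 0.07, edgeR's test, Benjamini-Hochberg adjusted p = 0.184) in dorsal and 0.22 (SE 0.09, edgeR's test, Benjamini-Hochberg adjusted p = 0.522) in ventral DG, and neither passed the test. Syt16 was counted at 67.7, 62.2, 64.7 and 66.4 CPM in dorsal SH, 59.3, 58.5, 60.2, 59.7 and 58.1 CPM in dorsal EE, 65.8, 66.0, 65.3 and 59.5 CPM in ventral SH and 59.1, 63.5, 55.0, 64.9 and 58.6 CPM in ventral EE. Its dorsal EE samples all lay below the dorsal SH samples, with a log2 fold change of -0.14 (SE 0.05, edgeR's test, Benjamini-Hochberg adjusted p = 0.28) that did not pass the test. Rims4 in ventral DG had values of 65.0 to 94.8 CPM in EE and 65.6 to 71.2 CPM in SH, with a log2 fold change of 0.23 (SE 0.08, edgeR's test, Benjamini-Hochberg adjusted p = 0.366) that did not pass either. Synpr was counted at 379, 432, 431 and 415 CPM in dorsal SH, 355, 335, 361, 441 and 424 CPM in dorsal EE, 409.7, 388, 434 and 379.6 CPM in ventral SH and 339, 333, 292, 407 and 366 CPM in ventral EE. Its ventral EE values were lower on average but overlapped those of SH, and the log2 fold change of -0.21 (SE 0.08, edgeR's test, Benjamini-Hochberg adjusted p = 0.519) did not pass the test.

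**Figure D5:**
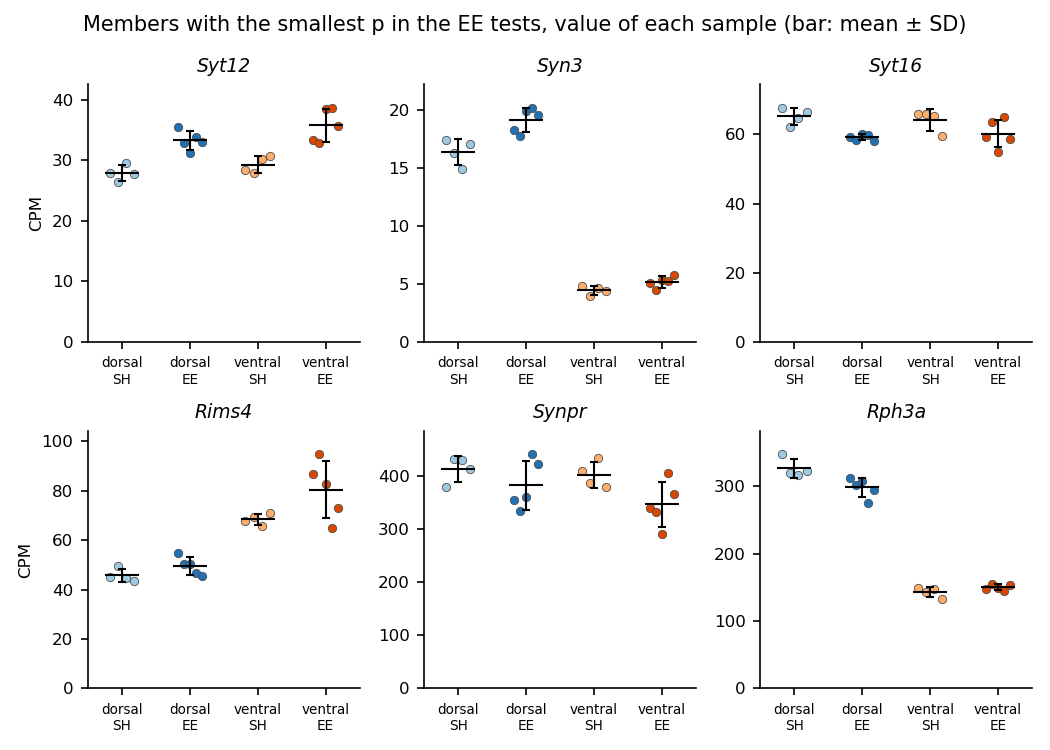
CPM of members with the smallest p values in the EE and interaction tests, 1 point per sample, with mean and SD for each of the 4 groups. For Syt12 every EE sample lies above every SH sample of its region.

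Of the granule cell markers, under TMM, 8 of 9 had lower values in EE than in SH in dorsal DG and 9 of 9 in ventral DG, and 0 of them passed the EE test of edgeR in either region. At an unadjusted p under 0.05 there were 3 in each region, and DESeq2 called 0 in dorsal and 1 in ventral DG. Their median EE log2 fold changes were -0.12 and -0.155. Among all other marker genes, edgeR called the interneuron peptide gene Npy raised by EE in both regions (log2 fold change 0.60, adjusted p = 4.0e-05 in dorsal, and 0.40, adjusted p = 0.00846 in ventral DG) and the hilar marker Nmb raised in dorsal DG (0.51, adjusted p = 0.0208). The microglial gene P2ry12 had a log2 fold change of -0.23 in dorsal DG (edgeR adjusted p = 0.0441), below the 20% limit. All 7 oligodendrocyte markers had higher values in EE in dorsal DG (median log2 fold change 0.12) and 6 of 7 in ventral DG (0.08), with 0 called in either region and 0 at an unadjusted p under 0.05. Of the 8 choroid plexus markers, 6 had lower values in EE in dorsal DG (median -0.43) and 8 had higher values in ventral DG (median 0.31), again with 0 called and 0 at an unadjusted p under 0.05. DESeq2 called 0 of the oligodendrocyte and choroid plexus markers. Of the 12 thalamus and habenula markers, edgeR called 0 in either region and DESeq2 called 1, in dorsal DG. By edgeR's test, 6 had an unadjusted p under 0.05 in dorsal DG (against 8.81% of all genes) and 0 in ventral DG. In dorsal EE, Gpr151 (1.74), Gbx2 (1.37) and Tac2 (1.19) were higher, all at most 2.04 CPM on average. Lhx9 (-0.27), Rora (-0.19) and Nwd2 (-0.16) were lower there (all log2). The part of these markers' cell types in the values of the members was not tested.

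A further 58 genes of the same pathway, such as other syntaxins, Munc18, liprin and CAPS genes, were listed beside the members, and 54 of them were tested. Of these, 10 were called in favour of dorsal and 3 of ventral DG, where all tested genes had shares of 15.9% and 16.8%. Among the 48 members the counts were 8 and 13. The median log2 fold change of the 54 was 0.01. The largest dorsal excess was that of Stxbp6 (amisyn, which binds SNAREs), with a log2 fold change of 0.97, and Stxbp6 is also in the list of granule cell markers. The glutamate transporter Slc17a8 (VGLUT3) followed with 0.84 and the RIM-binding protein Rimbp2 with 0.77. The largest ventral excesses were those of the endophilin gene Sh3gl2 (-0.39), of Rabac1 (-0.33), which binds Rab3a and Vamp2, and of synaptogyrin 1 (Syngr1, -0.27). EE changed 0 of the 54 in dorsal and 0 in ventral DG by edgeR's test and by DESeq2, with 4 and 2 at an unadjusted p under 0.05.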

How the data were processed

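RNA was taken from punches of dorsal and ventral DG, and libraries were made with the TruSeq Stranded total RNA kit and read as paired 100 bp ends. Per the submitters' processing notes, the authors used Trim Galore 0.4.0, STAR 2.5.1b and RSEM 1.2.30 with the mm10 build. The deposited count tables hold fragments per gene for each strand setting, and those of the reverse strand were used. The 32.6% to 40.9% of fragments not assigned to a single gene were left out. The authors' deposited RSEM tables hold the expected count of each gene, rounded here and used as an alternative. The same deposited tables hold TPM, which was used to compare genes.

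The main comparisons were made with edgeR 4.0.16 (TMM, quasi-likelihood test, 4 group means in 1 model of 18 samples), on genes that exceeded 10 counts in 2 or more samples, with Benjamini-Hochberg adjustment over all genes tested. DESeq2 1.42.0 was an alternative. The fit was also run on simulated counts drawn independently for each sample, a run that leaves out the pairing of samples within pools and says nothing about it. Each sample pooled mice, so the p-values measure the spread between pools. The 48 members and all lists were chosen with earlier results of these data known. Values of every sample are printed for the 6 members with the largest called difference between regions in each direction, for those called or with the 3 smallest p in the EE and interaction tests, and for the most abundant member of each role. Of the other pathway genes, the 3 largest called differences in each direction are named. Both samples of a pool, dorsal and ventral, came from the same mice, and their deviations from the group means correlated with r between -0.084 and 0.189 over the 9 pools. SH and EE samples of 1 replicate number correlated with r between 0.0815 and 0.175 over 4 pairs in dorsal and between 0.107 and 0.163 over 4 pairs in ventral DG, with 10 of 16 samples closest to their own number, and the labels do not say what the number marks. SH pool 3 was left out because the study excluded an SH sample for Xist without giving its number. Alternatives were other size factors, filters, count tables, blocks, left-out pools and, chosen after the data had been seen, scaling to granule cell markers. Depth was 22919364 to 28301861 counted fragments per sample. Gene positions are those of GRCm38.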

Additional observations from a re-analysis of the deposited data

Results flagged for a closer look

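Syt16 in the ventral SH sample of pool 5 was at 59.5 CPM, while the other ventral SH samples were at 65.3 to 66.0 CPM, so that 1 sample stood apart from the rest of its group. It was 1 of 100 groups examined, and chance alone sets apart about 1 in 20.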

How the results depend on the processing

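The count of 8 members higher in dorsal and 13 in ventral DG depended on the scaling. Scaled to the granule cell markers, a choice made after the data had been seen, the counts were 3 and 42, with the median of all genes at -0.73 on the log2 scale and 1.59% of the called genes higher in dorsal DG, against 48.7% under TMM. Several log2 fold changes were then in the opposite direction. Among them were Doc2a (-0.23), Unc13a (-0.30) and Syt10 (-0.41), called higher in dorsal DG under TMM, and Unc13a and Syt10 were then called higher in ventral DG. Others were Nsf (-0.51), Syt1 (-0.72), Cplx2 (-0.53) and Dnm1 (-0.68), not called under TMM. The shift of all genes by the scaling itself gives such reversals. Relative to that shift the same 8 and 13 members lay more than 20% away, which follows from the scaling and is no separate check. With no fold limit, 14 members had their higher level in dorsal and 19 in ventral DG, while 58.4% of all genes passed. Syt1, not called, was at -0.0017 with all 20 samples, at -0.0063 without EE pool 1 and at -0.0345 without SH pool 1, with -0.0345 to 0.036 over the left-out pools. Leaving out 1 pool gave 8 to 8 members higher in dorsal DG and 12 to 14 higher in ventral DG, where Napb was lost without EE pool 3, EE pool 4, SH pool 2 or SH pool 5 and Syt6 was gained without SH pool 1. The count raised by EE in dorsal DG, 0, was 1 (Syt12) with unstranded counts, with no fold limit and with the replicate block, and 0 to 1 when 1 pool was left out, with 1 without EE pool 3 or SH pool 4. The count raised in ventral DG, 1 (Syt12), was 0 with RSEM counts, in a fit of ventral samples alone and with the replicate block, and 0 to 1 when 1 pool was left out, with 0 without EE pool 3, 4 or 5 or SH pool 1, 2 or 4. The cause was not tested. In the replicate block for EE, Syt12 had log2 fold changes of 0.28 in dorsal (edgeR adjusted p = 0.00197) and 0.26 in ventral DG (edgeR adjusted p = 0.00593). The block on pools changed no call between regions. No other alternative moved a count by over 1.5 times. Depth limits mainly the members of low level, such as Cplx3 at 0.288 TPM.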
